A study of Homo sapiens with 14 samples.

Results

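The mitochondrial ribosomal proteins are the nuclear-encoded proteins of the ribosome that works inside mitochondria. They were taken as all probes whose annotated gene symbol starts with MRPL or MRPS followed by a digit, without pseudogenes, which gave 110 of the 47322 probes on the array. These probes stand for 76 of the 20046 genes named, 50 of the large subunit and 26 of the small subunit. The rule uses no measured value. A further 3 probes for pseudogenes were left out by the rule, and 2 probes for antisense RNAs of MRPL20 and MRPL23 matched its letters but encode no protein and were left out as well.

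The mitochondrial ribosome, or mitoribosome, is built from ribosomal RNAs of the mitochondrial genome and proteins made in the cytosol and imported. It translates the few messenger RNAs that the mitochondrial genome encodes, all of which specify subunits of the respiratory chain and ATP synthase. Part of its proteins have counterparts in bacterial ribosomes and part occur only in mitochondria. In the list used here 45 of the 76 genes belong to the former class and 31 to the latter. The list counts MRPS18A and MRPS18B in the latter, although they are related to bacterial S18.

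The cells were WM9, an established human melanoma line, and the drug was PLX4720, a small-molecule inhibitor of the BRAF kinase, used at 10 µM. Treated cells were collected after 12, 24, 48, 60, 72 or 96 h, and the control cells received the solvent DMSO and were collected at 96 h. Each of the 7 groups had 2 arrays, which the submitters call biological replicates, 14 arrays in all. A single line limits what the groups can stand for, and because DMSO was sampled at 96 h alone, drug and hours in culture cannot be told apart in the comparisons at 12 to 72 h. The title of the series names oxidative phosphorylation and senescence under BRAF inhibition as its subject.

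Values are log2 intensities after background correction and quantile normalization, so a difference of 1 is a 2-fold change. A gene was called when limma gave an adjusted p of 0.05 or less over all 13391 genes tested. All 76 members were tested, and the probe used for each was above background on all 14 arrays. Between 18867 and 20457 probes per array were above background. The DMSO arrays had the highest raw medians, 366 and 370 against 232 to 316 on the treated arrays, and differed most from each other: the standard deviation of the difference between replicates over the members was 0.376 for DMSO and 0.215 to 0.271 for the treated groups. The part of these 2 features in the results below was not tested. Of 10 melanocyte lineage markers, 10 were above background on at least 2 arrays and 5 on all 14 (MITF, SOX10, TYRP1, MIA and TFAP2A), whereas the leukocyte genes PTPRC and CD3E were not above it on 2 arrays. Of the leukocyte list of 5, the monocyte genes CD14 and LYZ were above background on 2 or more arrays, CD14 on 1 or 2 arrays of every group and LYZ on both arrays at 12 and 24 h and 1 DMSO array. Of the keratinocyte list of 5, 2 were above it, with KRT10 on all 14 arrays, and of the fibroblast list of 6, 4 were. COL1A2, DCN and LUM, which fibroblasts also express, were above background on all 14 arrays. The part of these markers in the results was not tested.

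The promoters of 7 members are shown because these are the members with at least 1 call against DMSO that held when each array was left out in turn: MRPL34, MRPL44, MRPS5, MRPS22 and MRPS25 rose and MRPL49 and MRPL50 fell. The windows run from 250 bases before to 50 bases after the annotated start, are taken from RefSeq for GRCh38.p14 and are written on the gene's own strand; where the table lists several starts for a gene (here MRPL34, MRPL49, MRPS5 and MRPS22), the first listed was used. Capitals mark the motif matches described below. MRPL34 lies at chr19:17292323-17292622, MRPL44 at chr2:223957213-223957512, MRPL49 at chr11:65121933-65122232 and MRPS22 at chr3:139343744-139344043, all on the plus strand. MRPL50 at chr9:101398569-101398868, MRPS5 at chr2:95121759-95122058 and MRPS25 at chr3:15065266-15065565 lie on the minus strand.
MRPL34: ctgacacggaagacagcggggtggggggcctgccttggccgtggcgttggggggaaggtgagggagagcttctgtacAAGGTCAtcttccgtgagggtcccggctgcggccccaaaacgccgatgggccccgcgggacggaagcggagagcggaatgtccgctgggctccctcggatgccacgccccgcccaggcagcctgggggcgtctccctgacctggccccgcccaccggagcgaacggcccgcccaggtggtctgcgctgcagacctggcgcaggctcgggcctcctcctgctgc
MRPL44: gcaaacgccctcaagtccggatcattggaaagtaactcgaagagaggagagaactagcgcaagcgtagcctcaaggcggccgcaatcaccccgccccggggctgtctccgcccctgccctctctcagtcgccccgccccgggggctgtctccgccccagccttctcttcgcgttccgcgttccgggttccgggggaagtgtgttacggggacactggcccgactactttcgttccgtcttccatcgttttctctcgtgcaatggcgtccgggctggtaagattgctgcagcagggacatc
MRPL49: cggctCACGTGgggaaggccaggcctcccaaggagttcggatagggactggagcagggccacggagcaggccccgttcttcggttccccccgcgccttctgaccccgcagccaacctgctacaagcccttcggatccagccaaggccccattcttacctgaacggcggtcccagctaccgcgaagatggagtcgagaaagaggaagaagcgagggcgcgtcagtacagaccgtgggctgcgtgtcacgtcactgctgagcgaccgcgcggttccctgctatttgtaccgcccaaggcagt
MRPL50: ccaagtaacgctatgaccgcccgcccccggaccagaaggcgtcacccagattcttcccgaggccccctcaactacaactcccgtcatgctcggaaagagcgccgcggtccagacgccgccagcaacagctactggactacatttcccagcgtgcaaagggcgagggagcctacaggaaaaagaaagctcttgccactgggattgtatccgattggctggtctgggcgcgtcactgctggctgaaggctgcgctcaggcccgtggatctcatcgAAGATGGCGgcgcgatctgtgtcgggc
MRPS5: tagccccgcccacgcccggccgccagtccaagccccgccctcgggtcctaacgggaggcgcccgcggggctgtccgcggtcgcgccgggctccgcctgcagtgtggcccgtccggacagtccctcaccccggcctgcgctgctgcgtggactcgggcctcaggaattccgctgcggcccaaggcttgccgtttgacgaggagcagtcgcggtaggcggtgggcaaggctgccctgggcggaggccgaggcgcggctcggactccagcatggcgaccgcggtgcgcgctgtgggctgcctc
MRPS22: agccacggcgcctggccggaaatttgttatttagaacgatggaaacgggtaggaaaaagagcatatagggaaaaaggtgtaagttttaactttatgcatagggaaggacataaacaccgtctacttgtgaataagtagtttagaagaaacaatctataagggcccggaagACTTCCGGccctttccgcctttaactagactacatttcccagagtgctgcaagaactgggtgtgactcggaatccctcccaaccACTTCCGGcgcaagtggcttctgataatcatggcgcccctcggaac
MRPS25: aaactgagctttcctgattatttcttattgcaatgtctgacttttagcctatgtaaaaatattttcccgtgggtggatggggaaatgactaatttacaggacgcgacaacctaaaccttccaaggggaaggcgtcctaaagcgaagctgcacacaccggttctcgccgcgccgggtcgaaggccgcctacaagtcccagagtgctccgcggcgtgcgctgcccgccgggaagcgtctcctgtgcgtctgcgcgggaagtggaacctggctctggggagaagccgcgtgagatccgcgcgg
MRPL34 holds 1 core of the oestrogen-related receptor motif (AAGGTCA) at position -173, counted from the start. MRPS22 holds the ETS motif of GABP (CCGGAAGT) at 2 places, positions -80 and 4, both on the opposite strand. MRPL49 holds 1 MYC E-box (CACGTG) at position -245 and MRPL50 holds 1 YY1 motif (AANATGGCG) at position 23. The windows of MRPL44, MRPS5 and MRPS25 hold 0 matches of the motifs searched.

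Over the 68 members with a promoter window in the RefSeq table, searched on both strands, YY1 letters stood in 18 (26.5%) against 4.81% of all 15843 windows of the same length. The GABP letters stood in 10 (14.7%) against 6.19%, the NRF1 letters (GCGCA, any base, GCGC) in 8 (11.8%) against 8.58%, the E-box in 6 (8.82%) against 8.88% and the oestrogen-related receptor core in 3 (4.41%) against 3.13%. The letters of the last motif were chosen after the MRPL34 window had been seen. Matches of different motifs overlapped in 10 of all windows (0.0631%). Of the 20 members that rose at some time and had a window, 7 held YY1, 4 GABP, 2 NRF1, 2 the receptor core and 0 the E-box, and of the 5 that fell, 2 held YY1, 1 NRF1, 1 the E-box and 0 the other motifs. Of the 43 members with a window that were called at no time, 9 held YY1, 6 GABP, 5 NRF1, 5 the E-box and 1 the receptor core. These are matches of letters and carry no test.

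Of the 76 mitochondrial ribosomal protein genes, 22 rose at 1 or more of the 6 times against DMSO, 6 fell and 48 were called at none. Called at any time were thus 36.8% of members and 46.5% of all genes tested. After quantile normalization the share that rose was close to that of all genes (28.9% against 27.7%), and the share that fell was smaller (7.89% against 21.4%). Scaling each array to the median of all its probes instead gave more falls than rises among the members at each of the 6 times. Under that scaling falls also outnumbered rises over all genes tested at every time (2849 falls against 760 rises in the 96 h comparison with DMSO). At 12 h 6 members rose and 0 fell, 7.89% of the family against 15.9% of all genes tested, of which 8.23% rose and 7.66% fell. At 24 h 7 rose and 2 fell (11.8%), against 19.4% of all genes, 10.7% up and 8.71% down. At 48 h 8 rose and 5 fell (17.1%), against 23.5% of all genes, 13% up and 10.4% down. At 60 h 9 rose and 3 fell (15.8%), against 23.8% of all genes, 13.3% up and 10.5% down. At 72 h 11 rose and 3 fell (18.4%), against 26.1% of all genes, 14.2% up and 11.9% down. At 96 h 11 rose and 5 fell (21.1%), against 28.1% of all genes, 15.5% up and 12.7% down. The share of members called was thus below that of all genes at each of the 6 times. It was also below it in 133 of 137 combinations of comparison and processing setting. The exceptions were the authors' deposited values at 48 h (27.6% against 25.5%) and 72 h (27.6% against 27.3%), no filter on dim probes at 60 h (13.2% against 12.4%), and the mean over a gene's probes at 96 h (28.9% against 28.3%). In bulk RNA, fewer cells that express a gene and less of its RNA per cell cannot be told apart.

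**Figure D1:**
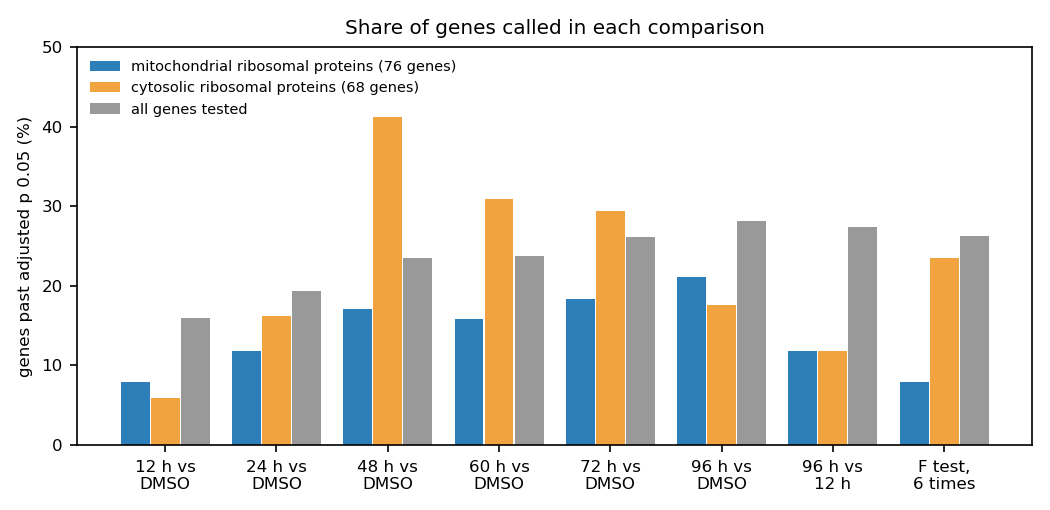
Share of genes past an adjusted p of 0.05 (y axis, percent) in each of 8 comparisons (x axis) for the 76 mitochondrial ribosomal protein genes, 68 cytosolic ribosomal protein genes and all 13391 genes tested. The mitochondrial bars lie below the bars of all genes in each comparison, from 7.89% at 12 h to 21.1% at 96 h.

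Fold changes beyond 2-fold were also less frequent among the members at each time. In the first 24 h 0 members differed from DMSO by more than 2-fold, against 7.77% (12 h) and 9% (24 h) of all genes. Later the share of members past 2-fold was 3.95% against 11.4% of all genes (48 h), 5.26% against 11.3% (60 h), 7.89% against 12.8% (72 h) and 1.32% against 13.4% (96 h). The members were brighter than all genes tested, with array medians of 11.51 to 11.99 against 9.35 to 9.43. The standard deviation of the difference between replicates was 0.215 to 0.376 for the members and 0.311 to 0.555 for all genes. The part of brightness and spread in these shares was not tested. The median log2 fold change of the members was 0.24 at 12 h, 0.15 at 24 h, 0.03 at 48 h, 0.10 at 60 h, 0.03 at 72 h and 0.18 at 96 h, where the median over all genes lay between 0.06 and 0.09. When each array was scaled to the median of all its probes in place of quantile normalization, these medians turned to -0.08, -0.22, -0.23, -0.32, -0.34 and -0.25. That scaling also moved the median of all genes, to -0.13 at 12 h and -0.24 at 96 h, and the members called at 96 h then split into 1 rise and 11 falls. No direction is therefore given for the family as a whole.

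**Figure D2:**
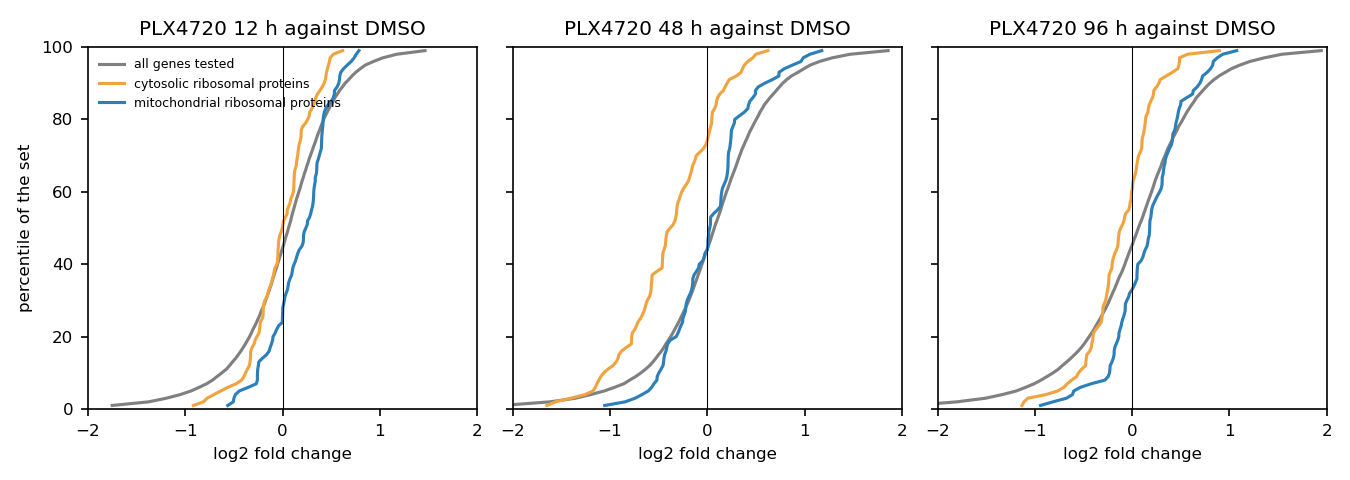
Distribution of log2 fold changes against DMSO (x axis, cut at 2 either way) by percentile of each set (y axis) at 12, 48 and 96 h for mitochondrial ribosomal proteins, cytosolic ribosomal proteins and all genes tested, after quantile normalization. The mitochondrial curve is steeper than that of all genes, and the cytosolic curve lies to its left, most clearly at 48 h (medians 0.03 and -0.38).

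Of the 26 small-subunit members 8 (30.8%) rose against DMSO at some time and 0 fell, where 27.7% of all genes rose and 21.4% fell. Of the 50 large-subunit members 14 (28%) rose and 6 (12%) fell: MRPL1, MRPL10, MRPL19, MRPL30, MRPL49 and MRPL50. The difference between the subunits was not tested. Across the processing settings, 1 to 3 small-subunit members fell in 15 of 90 combinations of setting and time, among them median scaling over all probes at 24 to 96 h and the fit without the first DMSO array at 24, 48 and 72 h. Without that array, 3 small-subunit members fell at 48 h. With median scaling over all probes, 1 small-subunit member rose at 48 h, 1 at 72 h and 0 at the other times.

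**Figure D3:**
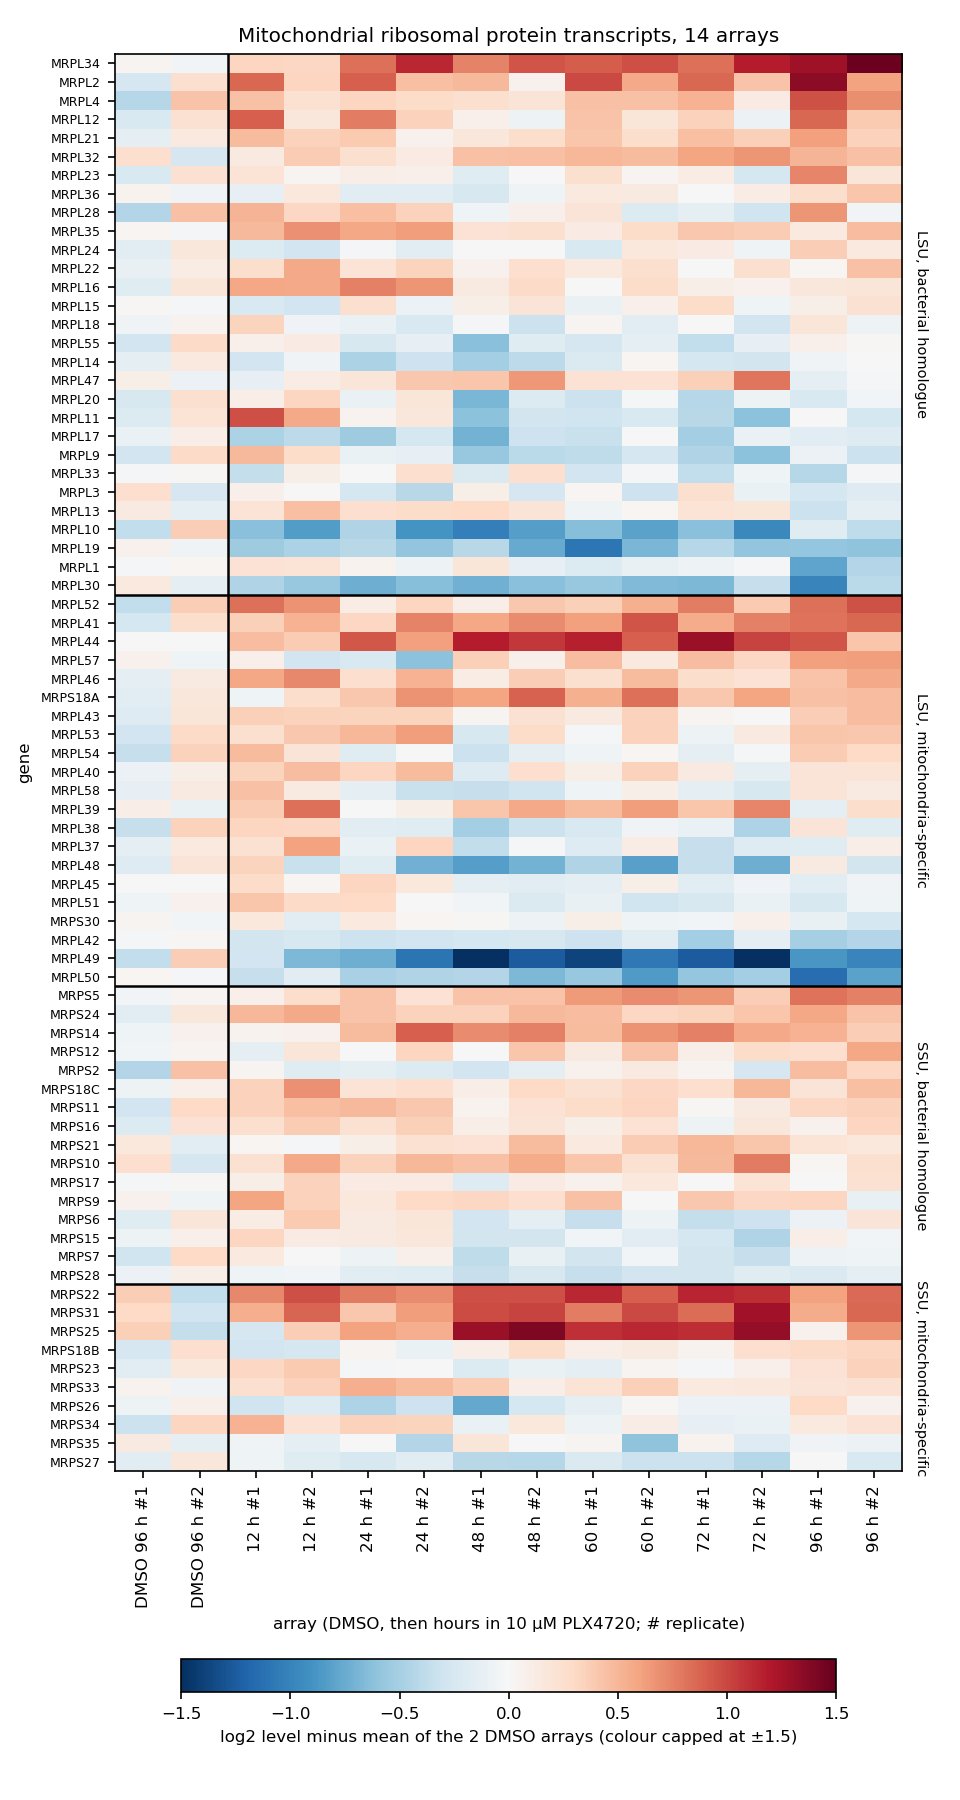
Log2 level of each of the 76 members (rows, grouped by subunit and class and ordered by the change at 96 h) on each of the 14 arrays (columns), as the difference from the mean of the DMSO arrays, with colour capped at 1.5 either way. MRPL34, MRPL44, MRPS22, MRPS25 and MRPS31 stand out as higher and MRPL49, MRPL50 and MRPL10 as lower on treated arrays, and most rows are pale.

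Among the large-subunit proteins with a bacterial counterpart, MRPL34, a small protein that binds ribosomal RNA, had the largest rise of the family at 96 h. The DMSO arrays read 12.74 and 12.67 for MRPL34. With PLX4720 the pairs of arrays read 13.03 and 13.02 (12 h), 13.53 and 13.84 (24 h), 13.46 and 13.65 (48 h), 13.62 and 13.68 (60 h), 13.53 and 13.89 (72 h), and 13.98 and 14.18 (96 h). All 12 treated arrays lay above both DMSO arrays. MRPL34 rose by 0.98 ± 0.18 (log2 fold change ± SE, n = 2 arrays a group) at 24 h (limma adjusted p = 0.00254) and by 1.37 ± 0.18 at 96 h (adjusted p = 0.00013), a 2.59-fold increase, while at 12 h the difference of 0.32 was not called (adjusted p = 0.282). Between 12 and 96 h of treatment MRPL34 rose by a further 1.06 (adjusted p = 0.00089). The 96 h calls held under every alternative setting run, including median scaling over all probes, whereas the calls at 24 to 72 h were lost under that scaling. The call at 48 h (0.84) was also lost without the second 48 h array (0.75).

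Some other large-subunit proteins of this class rose at 1 or 2 times. MRPL2, which lies close to the catalytic centre of the ribosome, rose by 0.98 ± 0.30 at 96 h (adjusted p = 0.0299), from 10.59 and 11.08 in DMSO to 12.18 and 11.44. MRPL4, a protein lining the exit tunnel of the nascent chain, rose by 0.83 ± 0.25 at 96 h (adjusted p = 0.0244), with 9.48 and 10.34 in DMSO and 10.86 and 10.61 at 96 h. The DMSO arrays were far apart for both genes, and neither call held without the first DMSO array (MRPL2 0.73, adjusted p = 0.174; MRPL4 0.40, adjusted p = 0.190). MRPL2 was also lost without the first 96 h array (0.61), and MRPL4 without either 96 h array (0.70 and 0.95). MRPL16 (0.57 ± 0.18, adjusted p = 0.044) and MRPL35 (0.58 ± 0.17, adjusted p = 0.0326) rose at 12 h and again at 24 h by 0.71 and 0.60. The MRPL16 calls were lost without the first DMSO array (0.39 at 12 h and 0.53 at 24 h) or either treated array of the time (0.56 to 0.76). Those of MRPL35 were lost without either treated array (0.48 to 0.69) and, at 12 h, without the second DMSO array (0.55). MRPL32 and MRPL47 rose at 72 h alone, by 0.63 and 0.58. The calls were lost without the second DMSO array (0.37 and 0.48), that of MRPL32 also without either 72 h array (0.66 and 0.59) and that of MRPL47 without the second (0.35). The second probe of MRPL47 pointed the other way at 72 h, with 9.3 and 9.4 in DMSO and 8.8 on both 72 h arrays.

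MRPL11 and MRPL12 belong to the stalk region of the large subunit, where translation factors bind. MRPL11 read 11.61 and 12.03 in DMSO, 12.78 and 12.39 (12 h), 11.86 and 11.98 (24 h), 11.20 and 11.54 (48 h), 11.52 and 11.59 (60 h), 11.40 and 11.20 (72 h), and 11.81 and 11.55 (96 h). The 12 h arrays were thus the highest of the 14, and those from 48 h on lay among or below the DMSO arrays. MRPL11 rose by 0.77 ± 0.21 at 12 h (adjusted p = 0.0252; 0.56 without the first DMSO array and 0.57 without the first 12 h array, not called) and fell by 0.90 ± 0.21 from 12 to 96 h (adjusted p = 0.00605). The latter call was lost without the first 12 h array (-0.71, adjusted p = 0.0699) or the second 96 h array (-0.78, adjusted p = 0.0582). Its 2 other probes fell as well from 12 to 96 h when every probe was tested on its own, the brighter by 1.19 (adjusted p = 0.00708). The dimmer, above background on 5 of the 14 arrays but on neither 96 h array, had a signal at least 1.78-fold lower there than at 12 h (adjusted p = 0.000267). MRPL12, which has also been reported to bind the mitochondrial RNA polymerase, was not called at any time: its log2 fold changes were 0.53 at 12 h and 0.63 at 96 h (adjusted p = 0.223 and 0.111). MRPL10, which anchors the stalk, read 10.80 and 11.54 in DMSO and 10.15 and 10.35 at 48 h. It fell by 0.92 ± 0.25 at 48 h (adjusted p = 0.0165) and by 0.79 at 72 h (adjusted p = 0.0316), and neither call held without the second DMSO array (-0.55 and -0.42), the first 48 h array (-0.82) or either 72 h array (-0.96 and -0.63). The second MRPL10 probe, above background on 13 arrays, read 7.8 and 8.0 in DMSO, 7.2 and 7.8 at 48 h, and 8.2 and 7.7 at 72 h. MRPL3, a core protein of the large subunit, was not called (-0.23 at 96 h, adjusted p = 0.472), although its dimmer probe, above background on 1 of the 2 arrays at 12 h, fell by 1.15 there.

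MRPL19, MRPL30 and MRPL1 were the remaining members of this class that fell. MRPL19 read 11.05 and 10.92 in DMSO and between 9.91 and 10.57 on the 12 treated arrays. It fell by 0.88 ± 0.19 at 60 h (adjusted p = 0.00445; -0.68 without the first 60 h array, not called) and by 0.60 at 96 h (adjusted p = 0.0319). The 96 h call was lost without the first DMSO array (-0.53) or either 96 h array (-0.61 and -0.59). MRPL30 read 10.03 and 9.75 in DMSO and between 8.90 and 9.55 on the treated arrays, and fell by 0.68 at 24 h, 0.67 at 48 h and 0.70 at 96 h (adjusted p = 0.0387, 0.0362 and 0.0263), calls lost without the first DMSO array (-0.54, -0.53 and -0.55). They were lost as well without either treated array at 24 h (-0.63 and -0.73) and 48 h (-0.62 and -0.72) and without the first at 96 h (-0.40). For both genes all treated arrays lay below both DMSO arrays. MRPL1, which binds ribosomal RNA at the opposite side of the subunit from the stalk, read 9.84 and 9.90 in DMSO, 10.09 and 10.07 (12 h), and 9.08 and 9.43 (96 h). It fell by 0.61 ± 0.18 at 96 h against DMSO (adjusted p = 0.0217) and by 0.82 ± 0.18 from 12 to 96 h (adjusted p = 0.00395). Both calls were lost without the first 96 h array (-0.44, adjusted p = 0.181, and -0.64, adjusted p = 0.0540).

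Of the large-subunit proteins found only in mitochondria, MRPL44 and MRPL41 rose at most times. MRPL44, which has the fold of an RNase III nuclease, read 11.17 and 11.18 in DMSO. Its treated pairs read 11.64 and 11.56 (12 h), 12.11 and 11.79 (24 h), 12.36 and 12.23 (48 h), 12.35 and 12.07 (60 h), 12.47 and 12.19 (72 h), and 12.13 and 11.60 (96 h). The groups did not overlap at any time, and the level was highest at 72 h, where MRPL44 had risen by 1.15 ± 0.21 (adjusted p = 0.00135, 2.22-fold). After median scaling over all probes MRPL44 was not called higher at any time. At 96 h the rise was 0.68 (adjusted p = 0.0273), and that call was lost without either DMSO array (0.68 and 0.69, adjusted p = 0.0720 and 0.0525) or the first 96 h array (0.42), as was the 24 h call (0.77) without the first 24 h array (0.62). MRPL41, which has also been studied in apoptosis, read 12.23 and 12.76 in DMSO, and between 12.80 and 13.44 on the treated arrays, all above both DMSO arrays. It rose by 0.83 ± 0.22 at 96 h (adjusted p = 0.0128), with 13.31 and 13.35, and was called from 48 h on, but at no time without the first DMSO array (0.38 to 0.57), nor at 48, 72 or 96 h without either treated array or at 60 h without the second (0.56 to 0.86).

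MRPL52 rose at 12 h and at 96 h, by 0.75 ± 0.24 and 0.89 ± 0.24 (adjusted p = 0.0495 and 0.0139), with 9.66 and 10.39 in DMSO. The DMSO arrays were 0.73 apart, and without the first of them the values were 0.38 and 0.52 and were not called. The calls were also lost without either 12 h array (0.67 and 0.83) and without the second 96 h array (0.83). MRPL46 rose at 12 h by 0.65 ± 0.18 (adjusted p = 0.0286), a call lost without the first DMSO array (0.52) or either 12 h array (0.72 and 0.58). MRPS18A, which despite its symbol belongs to the large subunit, rose by 0.74 at 48 h and 0.68 at 60 h (adjusted p = 0.0193 and 0.0276), and both calls were lost without the first DMSO array (0.57 and 0.51) or the second treated array (0.60 and 0.53). MRPS30, likewise a large-subunit protein, was not called, with log2 fold changes of -0.03 at 48 h and -0.19 at 96 h (adjusted p = 0.915 and 0.464). MRPL57 read 9.55 and 9.41 in DMSO, 9.24 and 8.86 (24 h), and 10.09 and 10.10 (96 h). It rose by 0.62 ± 0.20 at 96 h (adjusted p = 0.0371), a call lost without any one of the 4 arrays (0.55 to 0.69). Its second probe rose by 0.93 at 96 h.

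MRPL49 and MRPL50 were the members of this class that fell. For MRPL49 the DMSO arrays read 10.92 and 11.65. Its treated pairs read 11.00 and 10.61 (12 h), 10.55 and 10.20 (24 h), 9.64 and 10.04 (48 h), 9.90 and 10.21 (60 h), 10.04 and 9.38 (72 h), and 10.42 and 10.30 (96 h). The 12 h pair overlapped the DMSO pair and all later pairs lay below it. MRPL49 fell by 1.45 ± 0.28 at 48 h (adjusted p = 0.00268) and by 1.57 ± 0.28 at 72 h (adjusted p = 0.00131, 2.98-fold), and these 2 calls held under every alternative setting run. The falls at 24, 60 and 96 h (-0.92, -1.23 and -0.93) were lost without the second DMSO array (-0.55, -0.86 and -0.56), either 24 h array (-1.09 and -0.74), the first 60 h array (-1.07) or either 96 h array (-0.99 and -0.87).

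MRPL50 had closer DMSO arrays, at 11.69 and 11.63. Its treated pairs read 11.31 and 11.49 (12 h), 11.18 and 11.21 (24 h), 11.22 and 10.98 (48 h), 11.10 and 10.81 (60 h), 11.08 and 11.15 (72 h), and 10.52 and 10.85 (96 h). All 12 treated arrays were below both DMSO arrays, and the 96 h pair held the lowest value. MRPL50 fell by 0.97 ± 0.18 at 96 h (adjusted p = 0.00161, 1.96-fold) under every alternative setting run. Its smaller falls at 48, 60 and 72 h (-0.56, -0.71 and -0.55) were each lost without 1 or more single arrays (-0.44 to -0.68). It fell by a further 0.72 ± 0.18 from 12 to 96 h (adjusted p = 0.0104), which was lost without the second 12 h array (-0.63) or the first 96 h array (-0.55).

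In the small subunit, the proteins found only in mitochondria included a member called at all 6 times, MRPS22, in which mutations cause an inherited deficiency of mitochondrial translation. Its DMSO arrays read 12.72 and 11.98. The treated pairs read 13.07 and 13.32 (12 h), 13.14 and 13.06 (24 h), 13.32 and 13.31 (48 h), 13.49 and 13.25 (60 h), 13.49 and 13.46 (72 h), and 12.96 and 13.20 (96 h). The treated arrays varied little over time and all lay above both DMSO arrays, which were 0.74 apart. MRPS22 rose by 0.84 ± 0.23 at 12 h (adjusted p = 0.0231), 1.12 ± 0.23 at 72 h (adjusted p = 0.00268) and 0.73 ± 0.23 at 96 h (adjusted p = 0.0293). Without the second DMSO array the values were 0.47 at 12 h, 0.37 at 24 h, 0.59 at 48 h and 0.35 at 96 h, and these 4 calls were lost. Calls were also lost without either array of the 12 h (0.96 and 0.71), 24 h (0.71 and 0.79) or 96 h pair (0.85 and 0.60) and without the first 60 h array (0.89). After median scaling over all probes MRPS22 was not called higher at any time.

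MRPS25 and MRPS31, of the same class, were highest in the middle of the time course. For MRPS25 the DMSO arrays read 8.94 and 8.23, and the treated pairs read 8.33 and 8.95 (12 h), 9.19 and 9.13 (24 h), 9.88 and 9.99 (48 h), 9.68 and 9.71 (60 h), 9.70 and 9.90 (72 h), and 8.65 and 9.25 (96 h). The 12 h and 96 h pairs overlapped DMSO, and the 48, 60 and 72 h pairs lay well above it. MRPS25 rose by 1.35 ± 0.27 at 48 h (adjusted p = 0.00292, 2.55-fold) and by 1.21 ± 0.27 at 72 h (adjusted p = 0.00513), whereas at 96 h the difference was 0.36 (adjusted p = 0.349). Its calls at 48 and 72 h held under every alternative setting run; the call at 60 h (1.11) was lost without the second DMSO array (0.76) or the second 60 h array (1.09). MRPS31 read 10.75 and 10.16 in DMSO, and 10.86 to 11.72 on the treated arrays. It rose by 0.99 ± 0.23 at 48 h (adjusted p = 0.00779), 1.05 ± 0.23 at 72 h (adjusted p = 0.00497) and 0.71 at 96 h (adjusted p = 0.0365), and the 48 and 96 h calls were lost without the second DMSO array (0.70 and 0.42). The 72 h call was lost without the second 72 h array (0.84) and the 96 h call without either 96 h array (0.86 and 0.56). MRPS10, with a bacterial counterpart, and MRPS33 rose once, by 0.64 at 72 h and 0.51 at 24 h (adjusted p = 0.0402 and 0.0466), calls lost without the second DMSO array (0.38 and 0.45) or either treated array of the time (0.47 to 0.78).

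Of the 16 small-subunit proteins with a bacterial counterpart, 2 were called at 96 h. MRPS14 read 8.16 and 8.30 in DMSO and 8.94 and 8.99 at 48 h. It rose by 0.74 ± 0.18 at 48 h (adjusted p = 0.011), and at 24, 60 and 72 h by 0.68, 0.58 and 0.67. The calls at 24 and 60 h were lost without the first DMSO array (0.61 and 0.51), and 1 or more treated arrays decided each of the 4 calls (0.47 to 0.76 without them). MRPS5 read 10.64 and 10.72 in DMSO, 10.76 and 10.95 (12 h), and 11.50 and 11.44 (96 h). It rose by 0.79 ± 0.17 at 96 h against DMSO (adjusted p = 0.00419) and by 0.61 ± 0.17 from 12 to 96 h (adjusted p = 0.0167; lost without the first 12 h array or either 96 h array, at 0.52, 0.58 and 0.64). Neither of these MRPS5 rises was called after median scaling over all probes. MRPS24 rose by 0.50 ± 0.17 at 96 h (adjusted p = 0.0444), a call lost without the first DMSO array (0.33) or either 96 h array (0.43 and 0.58).

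The 3 proteins related to bacterial S18, of which only MRPS18C is listed here with a bacterial counterpart, differed in their calls. The difference between them was not tested. At 96 h against DMSO MRPS18A, MRPS18B and MRPS18C were at 0.45, 0.31 and 0.33 and were not called. Beside MRPS18A, described above, MRPS18C was not called (0.51 at 12 h, adjusted p = 0.0815), and MRPS18B rose from 12 to 96 h by 0.58 ± 0.19 (adjusted p = 0.0353). The MRPS18B call was lost when any single array of the 2 groups was left out (0.56 to 0.60). MRPS16 and MRPS34, which are mutated in inherited deficiencies of mitochondrial translation, and MRPS35 were not called, with log2 fold changes at 96 h of 0.20, 0.18 and -0.07 (adjusted p = 0.479, 0.574 and 0.857).

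**Figure D4:**
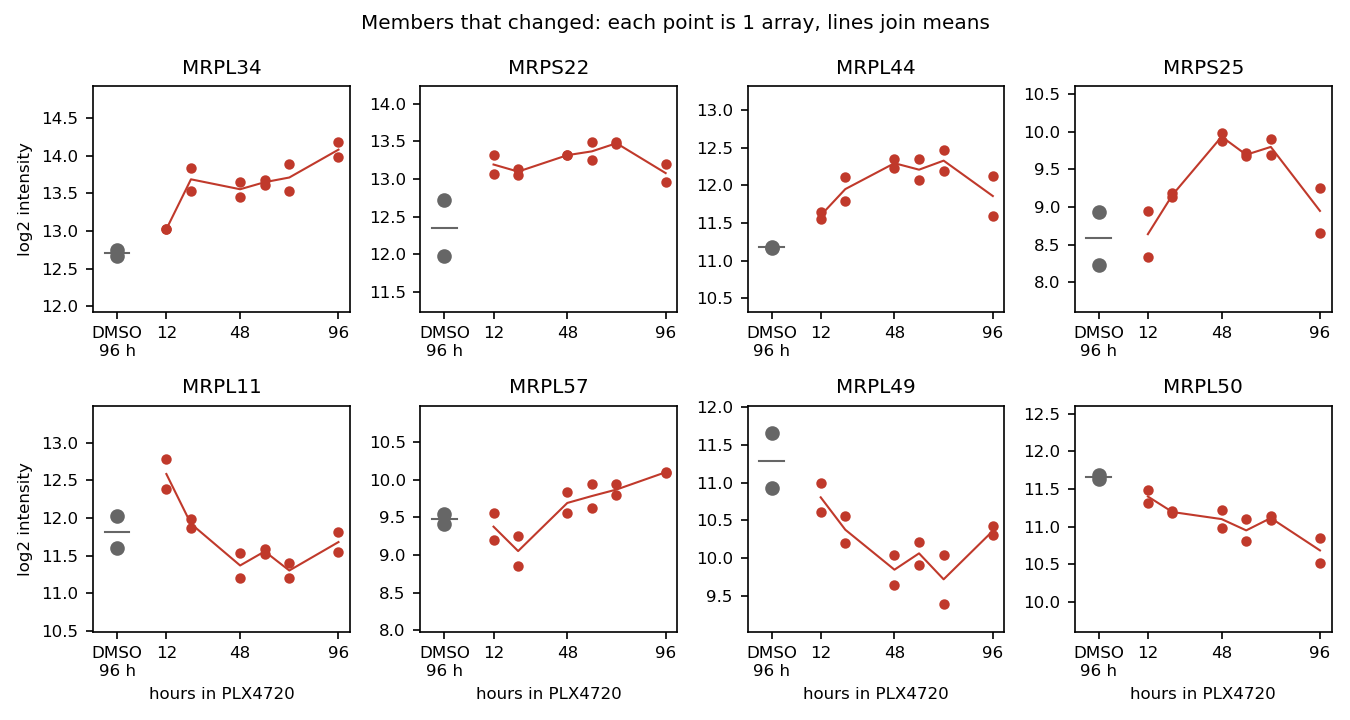
Log2 intensity (y axis, a span of 3 in every panel) on each array by hours in PLX4720 (x axis) for 8 members, with DMSO at 96 h in grey and lines through the means of treated pairs. MRPL34 climbs to 13.98 and 14.18, MRPS25 peaks at 48 h, MRPL11 is highest at 12 h and MRPL49 is lowest at 48 to 72 h.

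Between treated groups, where the DMSO arrays enter through the normalization and the shared estimate of spread, 4 members rose and 5 fell from 12 to 96 h, 11.8% of the family against 27.4% of all genes, 14.1% up and 13.3% down. The rises were MRPL34, MRPL57 (0.72 ± 0.20, adjusted p = 0.0177), MRPS5 and MRPS18B, and the falls MRPL11, MRPL1, MRPL50, MRPL9 and MRPL13. MRPL9 and MRPL13, large-subunit proteins with bacterial counterparts, fell by 0.59 ± 0.20 and 0.56 ± 0.17 (adjusted p = 0.0468 and 0.0266). MRPL57 was lost without the second 12 h array (0.54) or either 96 h array (0.73 and 0.72), MRPL13 without the second 12 h array (-0.43) or either 96 h array (-0.48 and -0.64), and MRPL9 without any one of the 4 arrays (-0.47 to -0.70). In the F test over the 6 treated times 6 members were called, 7.89% against 26.2% of all genes: MRPL11 (adjusted p = 0.00389), MRPS25 (0.0112), MRPL34 (0.0153), MRPL57 (0.0155), MRPL9 (0.0312) and MRPL1 (0.041). A fit on the 12 treated arrays alone called 13 members from 12 to 96 h, 7 up and 6 down, and 13 in the F test. Each was 17.1% of members, against 33.9% and 37.9% of all genes. With the replicate number as a block the counts were 13 (17.1% against 32.9%) and 14 (18.4% against 33.4%). Same-numbered treated arrays deviated together in all 15 pairs of treated groups (r of 0.15 to 0.38). The means of the 6 treated groups spanned less than 1 log2 unit in 71 of the 76 members, with a median span of 0.50. The largest span was 1.30, that of MRPS25.

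All 12 treated arrays lay above both DMSO arrays for 10 members, against 8.16% of all genes: MRPL34, MRPL35, MRPL41, MRPL44, MRPS5, MRPS18C, MRPS22, MRPS24, MRPS31 and MRPS33. They lay below both for 4, against 6.59% of all genes: MRPL19, MRPL30, MRPL42 and MRPL50. This rule was chosen after seeing the data. The comparisons at the 6 times share the same 2 DMSO arrays, so repeated calls of a gene are not independent of each other. Of the 70 calls of members against DMSO, 27 were lost without the first DMSO array and 24 without the second, 45 without one or the other, and 14 held without each array in turn. These 14 belonged to MRPL34, MRPL44, MRPL49, MRPL50, MRPS22, MRPS25 and MRPS5. With median scaling over all probes, the only rises called against DMSO were MRPS25 at 48 and 72 h and MRPL34 at 96 h.

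For 24 genes more than 1 probe was above background, and their probes pointed the same way in 22 genes at 96 h and in 15 at 24 h. In no comparison did 2 probes of a gene point in opposite directions past the threshold. The probes of several genes differed in their calls, among them those of MRPS21, a small-subunit protein, and of MRPL47. For MRPS21 the brighter probe, used here, read 13.76 and 13.45 in DMSO and 13.81 and 13.76 at 96 h, a log2 difference of 0.18 that was not called. The other read 10.61 and 10.84 in DMSO and 12.33 and 11.88 at 96 h, and rose by 1.38 ± 0.21 (adjusted p = 0.000315 with every probe tested). For MRPL47 the second probe fell by 0.81 at 48 h and by 0.85 at 96 h (adjusted p = 0.0123 and 0.00770), where the probe used was at 0.53 and -0.09 and not called. The second probe of MRPL35 rose by 0.97 at 96 h, where the probe used was not called. The same held at 96 h for other probes of MRPL21 (0.79), MRPS12 (0.70), MRPS18B (0.56) and MRPL33 (-0.61). The dimmest probe of MRPL11 was called lower there. From 12 to 96 h other probes of MRPL24 (0.73), MRPL10 (0.73), MRPS21 (1.17) and MRPL33 (-0.64) were called, and the probes used were not. The counts of members called therefore rest on the choice of probe.

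Genes of the same machinery under other names are named whatever their result. MRPL58, a peptidyl-tRNA hydrolase within the large subunit that also carries another name, was not called (0.16 at 96 h, adjusted p = 0.539). DAP3, a GTP-binding small-subunit protein also known from cell death, was not called (-0.01 at 96 h, adjusted p = 0.979), as was CHCHD1 (0.19, adjusted p = 0.451). PTCD3, a small-subunit RNA-binding protein above background on 1 of the 2 DMSO arrays, rose by 0.80 ± 0.21 at 48 h (adjusted p = 0.0136), and GADD45GIP1, a large-subunit protein, fell by 1.01 ± 0.29 at 48 h (adjusted p = 0.0219) and by 0.96 at 72 h (adjusted p = 0.0255). AURKAIP1 was not analysed here. Of 14 mitochondrial translation factors 2, 2, 5, 2, 6 and 4 rose at the 6 times in order, and 0 fell at each time. These were 14.3%, 14.3%, 35.7%, 14.3%, 42.9% and 28.6% of the list. Of all genes 8.23%, 10.7%, 13%, 13.3%, 14.2% and 15.5% rose, and 7.66% to 12.7% fell. At 96 h the release factor MTRF1 (0.97 ± 0.29, adjusted p = 0.0244) and the recycling factor MRRF (0.95 ± 0.19, adjusted p = 0.00229) led them, and SLIRP (-0.13) and GUF1 (-0.12) were lowest and not called.

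Of 23 assembly and rRNA modification genes 1 rose and 2 fell at 96 h (13% called, against 28.1% of all genes). TFB1M, a methyltransferase of the small-subunit rRNA, fell by 1.44 ± 0.20 (adjusted p = 0.000139). GTPBP10, a GTPase of large-subunit assembly, was called lower (adjusted p = 0.0292) but was not above background on the 96 h arrays and on 1 of the 2 DMSO arrays, so no size is given. YBEY, an endonuclease, rose by 0.54 (adjusted p = 0.0442), and MPV17L2 was 0.68 higher and not called (adjusted p = 0.0558). Of 19 genes for mitochondrial aminoacyl-tRNA synthetases and the related amidotransferase 1 rose and 0 fell at 96 h (5.26%, against 28.1% of all genes). MARS2 rose by 0.84 (adjusted p = 0.00434) and GATB was 0.61 higher and not called (adjusted p = 0.0602). GATC and WARS2 were at -0.48 and -0.40 and were not called.

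The ribosomal proteins of the cytosol showed another balance. Of 68 genes 2 rose and 2 fell at 12 h (5.88% called, against 15.9% of all genes). At 48 h 3 rose and 25 fell (41.2% against 23.5%), and at 96 h 5 rose and 7 fell (17.6% against 28.1%). Their median log2 fold change was -0.38 at 48 h, against 0.03 for the mitochondrial family after the same quantile normalization. At 96 h RPS23 (1.48) and RPL37 (0.61) rose and RPL29 and RPL23A fell, by 1.13 each. The difference between the families was not tested.

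Of the regulators linked to genes for mitochondrial proteins, MYC was lower at all times and PPARGC1A higher. MYC, a transcription factor that drives ribosome synthesis, read 11.35 and 11.69 in DMSO, 8.11 and 8.25 after 12 h and 10.21 and 10.31 after 96 h, and fell by 3.34 ± 0.17 at 12 h and 1.26 ± 0.17 at 96 h (adjusted p = 1.4e-07 and 0.000163). PPARGC1A, a coactivator of mitochondrial biogenesis, read 9.53 and 8.63 in DMSO, 9.77 and 10.18 after 12 h and 11.71 and 11.83 after 96 h, and rose by 0.89 ± 0.26 and 2.69 ± 0.26 (adjusted p = 0.0312 and 7.4e-06). ESRRA, the nuclear receptor it acts with, was not called at 12 h (0.32) and rose by 1.79 ± 0.21 at 96 h (adjusted p = 3.98e-05). TFAM, which packages and transcribes mitochondrial DNA, rose at 72 h alone among the times (0.89 ± 0.30, adjusted p = 0.044), and NRF1, above background on 0 to 2 arrays a group, and GABPA were not called at any of the 6 times. No relation between these genes and the members was tested.

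Many mitochondrial ribosomal protein genes start close to another gene on the opposite strand. Such a neighbour within 1000 bases was found for 17 of the 68 members with a window (25%) and for 1630 of all 15843 genes with a window (10.3%). MRPL49 starts 49 bases from FAU, which encodes a fusion with a cytosolic ribosomal protein: at 72 h MRPL49 fell by 1.57 while FAU was at -0.09 and not called (adjusted p = 0.790). MRPL50 starts 233 bases from ZNF189, which was at -0.24 at 96 h (adjusted p = 0.636) where MRPL50 fell by 0.97. MRPL57 starts 106 bases from SKA3, a kinetochore gene that rose by 1.28 at 12 h and fell by 0.96 at 96 h (adjusted p = 0.00123 and 0.00464), where MRPL57 was at -0.10 and rose by 0.62. MRPL46 and MRPS11, both members, start 320 bases apart and had log2 fold changes at 12 h of 0.65, called, and 0.40, not called (adjusted p = 0.189).

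**Figure D5:**
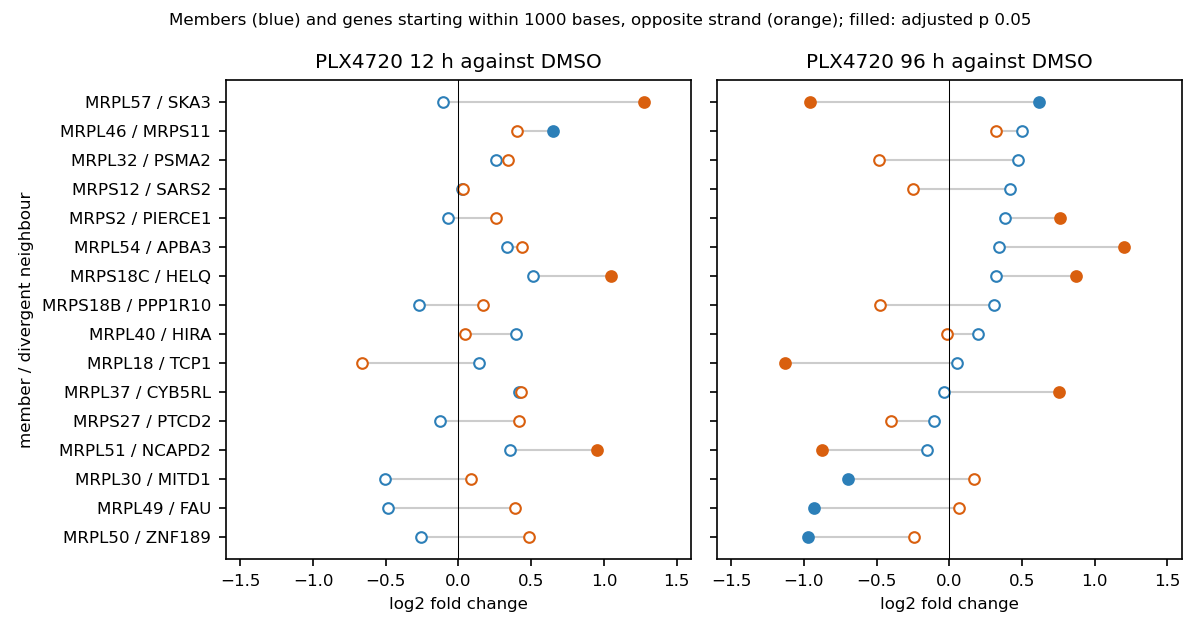
Log2 fold change against DMSO at 12 h and 96 h (x axes) for 16 pairs (rows) of a member, in blue, and the gene that starts within 1000 bases on the opposite strand, in orange, with filled points past an adjusted p of 0.05. At 96 h MRPL57 is at 0.62 and SKA3 at -0.96, and MRPL49 is at -0.93 beside FAU at 0.07.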

How the data were processed

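RNA of WM9 cells was measured on 14 one-colour Illumina arrays. Per the file headers and values, the deposited unnormalized table holds 1 linear signal intensity per probe and array, and the table normalized by the authors holds log2 values. The scanner software is not given in the sources used here. Detection p-values were not used here, so neqc of limma could not be run. Instead normexp (saddle, offset 16) was applied to the intensities, followed by log2 conversion and quantile normalization.

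Background was judged array by array: a probe counted as above it if brighter than the array's mode plus a margin, set at the 1% tail of a normal curve fitted to the values under the mode. Platform annotation named 1 gene for 30113 probes and several for 8, and left the others unnamed; 30074 matched RefSeq for GRCh38.p14. For each of 13391 genes the probe with the highest mean was used, out of those that passed this rule on 2 or more arrays. The 2 arrays a group limit the precision, and where replicates are technical the p-values measure technical spread.

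A means model for the 7 groups was fitted to the log2 values (lmFit, eBayes; limma 3.58.1, R 4.3.3; 7 residual and 5.82 prior degrees of freedom). Two-sided tests were used, with Benjamini-Hochberg adjustment within each of 8 comparisons and a threshold of 0.05. The procedure was tested on simulated data. Genes named were the 6 largest rises and 6 largest falls among members past the threshold in the comparisons of 12 h with DMSO, 96 h with DMSO and 96 h with 12 h; a fixed set whatever their result; and the 2 largest changes each way in other lists at 96 h. Other genes named were chosen after their values were seen. The members and lists were chosen with earlier results of these data known. Alternatives covered scaling, background offset, the authors' values, filters, probe choice, array weights, a replicate block and leaving out arrays.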

Additional observations from a re-analysis of the deposited data

Results flagged for a closer look

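For 9 members the level after 96 h of PLX4720 differed from that after 12 h by limma's test, where time on the drug and hours in culture cannot be told apart. They were 11.8% of the family, against 27.4% of all genes. Each of these calls except that of MRPL34 was lost when some single array was left out. On the log2 scale the 96 h level minus the 12 h level was -0.82 for MRPL1, -0.90 for MRPL11, -0.56 for MRPL13, 1.06 for MRPL34, -0.72 for MRPL50, 0.72 for MRPL57, -0.59 for MRPL9, 0.58 for MRPS18B and 0.61 for MRPS5.

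Outside the main measurement, the probe of the pseudogene MRPL42P5, left out by the rule, was not above background on the DMSO arrays or at 12 h and was above it on the other 10 arrays, those at 24 to 96 h. Its log2 difference at 96 h against DMSO was 0.63 ± 0.20 (means 7.68 and 7.05; limma adjusted p = 0.0306 with every probe tested), at least 1.36-fold higher. Groups of 2 arrays were too small to look for single outlying arrays.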

How the results depend on the processing

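The numbers of members called, 6, 9, 13, 12, 14 and 16 at 12, 24, 48, 60, 72 and 96 h against DMSO, 9 at 96 h against 12 h and 6 in the F test, depended on the processing, and the cause was not tested unless stated. With array weights they were 0, 1, 4, 4, 6 and 3 against DMSO and 15 in the F test; the weights were 0.325 for each DMSO array and 1.07 or more for the others. With the arrays compared alone they were 0, 1, 4, 5, 6 and 5, a fit with fewer samples. The 12 treated arrays gave 13 in the F test (17.1% against 37.9% of all genes). At 96 h against 12 h these arrays gave 13 (17.1% against 33.9%). Without a filter on dim probes, which raises the number of genes tested to 20046, the numbers were 0 at 12 h, 4 at 24 h, 7 at 72 h and 5 at 96 h. With probes above background on all 14 arrays they were 10 at 12 h and 10 in the F test. The authors' deposited log2 values gave 12 at 12 h, 21 at 48 h, 14 at 96 h against 12 h and 18 in the F test. Median scaling over all probes gave 2 at 12 h and 2 in the F test, and over probes above background 2 at 12 h and 9 at 72 h. Testing every probe counts probes in place of genes. Of 104 member probes 14 (13.5%) were called at 24 h and 16 (15.4%) at 96 h against 12 h. In the F test 11 (10.6%) were called. The shares over all probes were 18.1%, 25.4% and 23.7%. Leaving out 1 array at a time gave ranges of 0 to 10, 2 to 14, 7 to 20, 5 to 14, 6 to 18 and 4 to 19 against DMSO, 2 to 6 at 96 h against 12 h and 2 to 7 in the F test; at 96 h against DMSO there were 8 calls without the first and 19 without the second DMSO array.

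Over all genes, array weights and the arrays compared alone left 856 and 864 calls at 12 h of 2128, 1189 and 1283 at 24 h of 2603, 1522 and 1571 at 48 h of 3143, 1603 and 1687 at 60 h of 3192, 1930 and 2021 at 72 h of 3497, and 1891 and 2293 at 96 h of 3767; median scaling left 2300 of 3513 in the F test. Leaving out 1 treated array lowered the number of calls over all genes in every comparison refitted that way. Median scaling over all probes turned 2069 rises and 1698 falls at 96 h into 760 and 2849. No called member changed sign under any setting run. Of 1695 single-gene values under alternatives 1396 kept their side of the threshold, 42 of them uncalled values with another sign, 281 lost a call and 18 gained one. These values cover only the members named by rule and include uncalled ones, so 1396 does not count calls kept.

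The replicate block gave 11 calls at 12 h (14.5% of members, against 21.1% of all genes) and 14 in the F test (18.4% against 33.4%). It gave 19 at 48 h (25% against 28.8%) and 22 at 96 h (28.9% against 33.9%). At 96 h against 12 h it gave 13 (17.1% against 32.9%). The labels do not say that a number marks a shared batch. Deviations of same-numbered arrays correlated at 0.15 to 0.38 between treated groups and at -0.19 to 0.39 between DMSO and treated groups. Since the latter were not all above 0.1, the comparisons with DMSO were not treated as paired.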
